A study of Mus musculus with 2 samples.

Results

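The HOX genes are 39 mouse genes in 4 clusters, named Hoxa, Hoxb, Hoxc or Hoxd followed by a number. All 39 in the RefSeq table had a probe on the array, found through the accession that the scanner files give for each probe, among 20433 genes with a symbol. The study grew 2 stable lines of ATDC5, a mouse chondrocyte cell line, each made by lentiviral transduction: the control overexpressed the fluorescent protein GFP, and the other line overexpressed HES1, a transcriptional repressor downstream of Notch receptors. Both were kept 3 days as monolayers in 60 mm dishes before total RNA was taken. The labels do not say whether a line was a clone or a pool, nor which promoter drove the transgene. Each line was read on 1 single-colour Agilent array, so none of the differences could be checked against replicates and no test was made. Mouse Hes1 itself read 10.2 in the GFP line and 10.3 in the other, below the level called well above background, so its probe does not check the label, and the second line is called here the line labelled HES1.

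HOX genes encode transcription factors that bind DNA through a homeodomain and give cells along the head-to-tail axis and the limbs their position. Within a cluster, genes with low numbers act towards the head and genes with high numbers towards the tail and the tips of the limbs. Genes of the same number in different clusters are paralogs, descended from 1 ancestral gene, and often share tasks in the skeleton. Some cells in culture keep a HOX pattern of the body site they came from. Whether this holds for ATDC5 was not examined here.

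Of the 39 genes, 26 were well above background on both arrays, 1 on the GFP array alone and 11 on neither. The remaining gene, Hoxc4, had its only spot marked by the scanner software as a background outlier on the GFP array and is given separately. The 27 genes well above background on at least 1 array are called measured. They make up 10 of 11 genes of cluster A, 8 of 10 of cluster B, 5 of 9 of cluster C and 4 of 9 of cluster D. Among all genes with a symbol, 64.0% were well above background on both arrays and 69.9% were measured. By paralog number, 8 of the 11 usable genes numbered 1 to 4 were measured, 10 of the 11 numbered 5 to 8, and 9 of the 16 numbered 9 to 13. The 11 that were not were Hoxa11, Hoxb1, Hoxb13, Hoxc8, Hoxc11, Hoxc12, Hoxd1, Hoxd3, Hoxd10, Hoxd11 and Hoxd12, with signals from 8.43 to 35.6. No fold is given for them.

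The clusters went different ways: cluster B was higher in the line labelled HES1, while clusters A, C and D were mostly lower. Signals are scanner units, scaled so that each array has a 75th percentile of 1057.2, and each difference is the log2 signal of the line labelled HES1 minus that of the GFP line. The median difference was 0.49 over the 8 measured genes of cluster B, against -0.50 over 10 in cluster A, -1.03 over 5 in cluster C and -0.77 over 4 in cluster D. The median over all 14273 measured genes was -0.06. In cluster B, 7 of 8 differences lay above 0, and 45.0% of all measured genes did. In clusters A, C and D together 15 of 19 lay below 0, against 55.0% of all measured genes. Of the 27 genes, 6 were at least 2-fold lower (4.95% of all measured genes were) and 1 was at least 2-fold higher (11.1%). By name, the 6 lower genes were Hoxa2, Hoxa5, Hoxc5, Hoxc6, Hoxc9 and Hoxd8, and the higher one was Hoxc13. The count of lower genes was 3 after a loess fit (Hoxa2, Hoxc5 and Hoxc9) and 2 under a normexp background correction (Hoxc5 and Hoxc9), where the count of higher genes was 0. Short of 2-fold, Hoxa5 was at -0.95 and -0.79 under these settings, Hoxc6 at -0.88 and -0.96 and Hoxd8 at -0.93 and -0.95, and Hoxa2 was at -0.70 under normexp. Relative to the median of all genes, Hoxc6 was at -0.97. The scanner's own error of a difference ran from 0.20 to 0.43 over the 27 genes, with a median of 0.21, and does not include differences between cultures. Of the 6 lower genes, Hoxa2, Hoxa5, Hoxc6, Hoxc9 and Hoxd8 lay within their scanner error of the 2-fold threshold. Hoxc5 and Hoxc13 lay further past it. In whole cultures, fewer cells expressing a gene and less RNA per cell cannot be told apart.

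**Figure D1:**
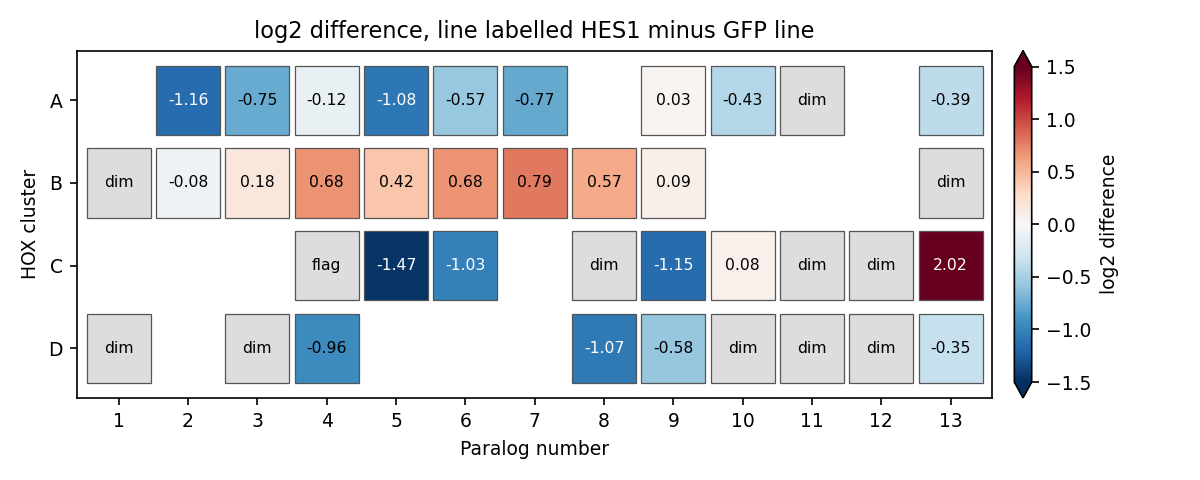
Log2 difference of HOX genes, line labelled HES1 minus GFP line, by cluster (rows) and paralog number (columns), 1 array per line. Grey tiles marked dim were not well above background on either array, the tile marked flag is Hoxc4, and blank places are not shown. Cluster B runs from -0.08 to 0.79, and the value for Hoxa13 rests on 1 array well above background.

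The promoters of paralogs from cluster B and cluster D are shown because these pairs went opposite ways, Hoxb4 against Hoxd4 and Hoxb8 against Hoxd8. Each runs 5′ to 3′ from 250 bases before to 50 bases after the gene's start, from RefSeq on build GRCm38.p6. Capitals mark CACNAG, known as the N box, or CACGNG. The second pattern includes the class C site but is wider, since it also takes in the E box CACGTG. HES1 is known to bind N boxes and class C sites, and either strand was searched.
Hoxb4, chr11:96318017-96318316, plus strand: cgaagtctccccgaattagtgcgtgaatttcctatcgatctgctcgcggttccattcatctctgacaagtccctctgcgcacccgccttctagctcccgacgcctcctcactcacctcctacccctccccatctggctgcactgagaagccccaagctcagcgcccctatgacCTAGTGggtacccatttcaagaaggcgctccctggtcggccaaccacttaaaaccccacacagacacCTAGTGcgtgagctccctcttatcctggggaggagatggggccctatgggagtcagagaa
Hoxd4, chr2:74721728-74722027, plus strand: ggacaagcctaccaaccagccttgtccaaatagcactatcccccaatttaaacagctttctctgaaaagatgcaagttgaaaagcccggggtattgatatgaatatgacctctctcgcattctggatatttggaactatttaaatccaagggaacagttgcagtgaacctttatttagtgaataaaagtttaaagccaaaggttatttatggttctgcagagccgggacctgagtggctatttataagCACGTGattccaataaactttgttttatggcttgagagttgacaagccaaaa
Hoxb8, chr11:96281655-96281954, plus strand: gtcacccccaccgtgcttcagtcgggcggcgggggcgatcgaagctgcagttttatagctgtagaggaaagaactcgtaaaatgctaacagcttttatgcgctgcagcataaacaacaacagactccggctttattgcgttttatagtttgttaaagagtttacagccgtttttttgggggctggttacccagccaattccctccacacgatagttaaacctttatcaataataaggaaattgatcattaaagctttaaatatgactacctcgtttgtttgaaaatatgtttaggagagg
Hoxd8, chr2:74704365-74704664, plus strand: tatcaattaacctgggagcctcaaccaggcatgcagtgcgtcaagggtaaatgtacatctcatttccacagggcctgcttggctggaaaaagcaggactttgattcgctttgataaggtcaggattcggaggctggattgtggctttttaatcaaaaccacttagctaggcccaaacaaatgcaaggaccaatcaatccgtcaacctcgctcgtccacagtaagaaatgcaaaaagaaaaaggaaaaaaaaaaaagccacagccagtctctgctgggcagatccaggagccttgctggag
Hoxb4 held 2 matches to CACNAG, read on the opposite strand. Hoxd4 held 1 match to CACGNG, with the letters CACGTG, which are an E box and not a class C site. Neither motif was in the windows of Hoxb8 and Hoxd8. The GC content was 58.0% for Hoxb4, 39.7% for Hoxd4, 42.3% for Hoxb8 and 46.7% for Hoxd8. Other pairs, such as Hoxb7 and Hoxa7, also went opposite ways. Of cluster B, though, the reference table held only the promoters of Hoxb1, Hoxb4 and Hoxb8. It held 24 promoters of 22 HOX genes, of which 8 (33.3%) held CACNAG and 9 (37.5%) held CACGNG, E boxes included. Among all 32851 promoters of this length the shares were 42.5% and 27.5%. The letters CACGAG match both motifs. A match describes the letters in a window and is not evidence of binding.

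In cluster B the genes in the middle of the cluster showed the largest differences. Hoxb7 had a signal of 12335 in the GFP line and 21318 in the line labelled HES1, a 1.73-fold difference (log2 0.79, scanner error 0.20). Hoxb4, which promotes the expansion of blood stem cells, went from 2141 to 3426, a log2 difference of 0.68. Hoxb6 also differed by 0.68, at 9070 against 5679. These 3 were the genes of cluster B that passed 1.5-fold, as did 17.4% of all measured genes. Hoxb8, which can hold blood progenitors in an undifferentiated state, read 3948 and 5850 (0.57). Hoxb5 was at 1227 and 1639, with a difference of 0.42. All 5 of these differences were more than 2 times the scanner's error, as were 40.3% of all measured genes in either direction.

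At the ends of cluster B the lines were closer together. Hoxb9, a gene of thoracic identity that acts on the ribs, read 6493 and 6898 (0.09). Hoxb3 was at 587 and 662 (0.18) by its brightest probe and at 332 and 441 (0.41) by its second. Hoxb2, a hindbrain gene, was at 105 and 99.2, the only measured member of cluster B below 0, at -0.08. The differences of Hoxb9 and Hoxb2, and that of the brightest Hoxb3 probe, lay within the scanner's error. Hoxb1, a gene of the hindbrain, and Hoxb13, a gene of the tail end and the prostate, were not well above background in either line.

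**Figure D2:**
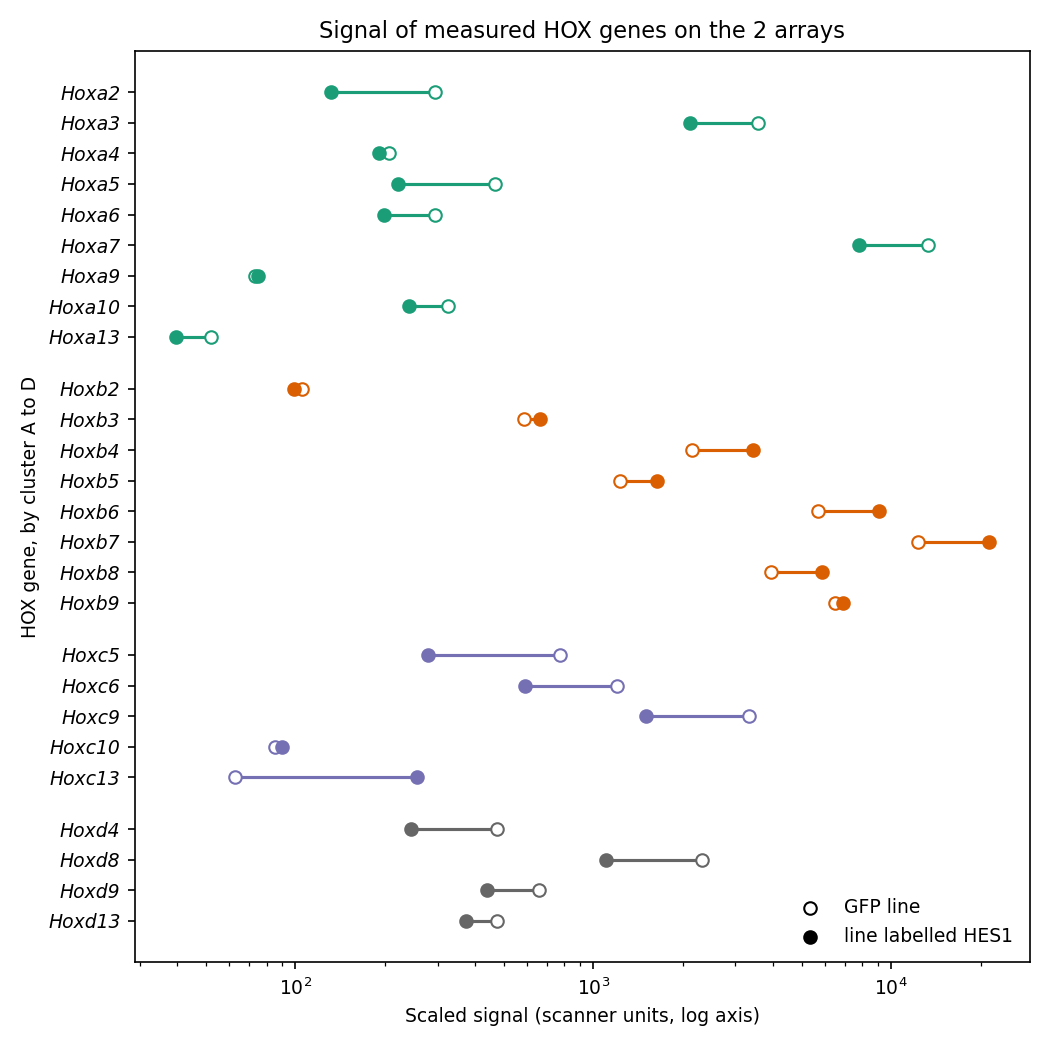
Scaled signal in scanner units (log axis) of 26 measured HOX genes, with an open circle for the GFP line and a filled circle for the line labelled HES1, 1 array each. In cluster B the filled circle lies to the right for 7 of 8 genes, and in clusters A, C and D it lies to the left for 15 of the 18 drawn. Signals compare the lines for a gene, not genes with each other.

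Cluster A was lower or close to even. Hoxa2, the selector gene of the second pharyngeal arch, went from 294 to 132, 2.23-fold lower (log2 -1.16, scanner error 0.23). Hoxa5, which patterns the lower neck and the lung, was 2.11-fold lower at 222 against 469. Hoxa7 was at 13331 in the GFP line and 7804 in the line labelled HES1, a log2 difference of -0.77. Hoxa3, needed for the thymus and parathyroid, went from 3567 to 2119 (-0.75). These 4 genes were at least 1.5-fold lower, as were 14.6% of all measured genes.

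Other genes of cluster A stayed within 1.5-fold. Hoxa6 had signals of 293 and 198 (-0.57), and Hoxa10, a gene of lumbar vertebrae and the uterus, had signals of 326 and 241 (-0.43). Hoxa4 was at 206 and 191, a difference of -0.12. That difference lay within the scanner's error. Hoxa9, a gene of posterior identity and of blood progenitors, was at 73.4 and 75.1 (0.03), and its second probe was at 36.5 and 53.1, well above background only in the line labelled HES1. Hoxa13, a gene of the hand and foot, was well above background only in the GFP line, at 52.1 against 39.6, a difference of -0.39 that lay within its scanner error of 0.43.

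Cluster C held both the lowest and the highest HOX difference. Hoxc5 was at 776 in the GFP line and 280 in the line labelled HES1, 2.77-fold lower (log2 -1.47, scanner error 0.21). Hoxc9, a thoracic gene, was 2.23-fold lower at 1501 against 3341. Hoxc6, another thoracic gene, was 2.04-fold lower at 589 against 1202. Hoxc4 lies beside Hoxc5. Its flagged spot read 4252 and 2178, a log2 difference of -0.97, and with such spots kept the median of all HOX genes was -0.37 over 28. Hoxc10, a gene of lumbar and hindlimb identity, was at 85.6 and 90.5, a difference of 0.08 within its error of 0.31.

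Hoxc13, at the far end of the cluster, went the other way from Hoxc5, Hoxc6 and Hoxc9. It drives keratin genes of hair and nail, and its signal was 62.8 in the GFP line and 255 in the line labelled HES1, 4.06-fold higher (log2 2.02, scanner error 0.30). Under the normexp correction, its log2 difference was 0.89. Between Hoxc10 and Hoxc13 on the chromosome, Hoxc11 and Hoxc12 were dim in both lines. Without Hoxc13 the measured genes of clusters A, C and D ran from -1.47 to 0.08.

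All 4 measured genes of cluster D were lower in the line labelled HES1. Hoxd8 was at 2311 in the GFP line and 1099 in the line labelled HES1, 2.10-fold lower. Hoxd4, which acts on the vertebrae of the neck, went from 474 to 244, a log2 difference of -0.96. Hoxd9 was at 656 and 438 (-0.58). Hoxd13, the gene of digit patterning, was at 476 and 374 (-0.35). Hoxd13 was the smallest of these differences, 1.68 times its scanner error, and the other 3 were more than 2 times theirs. Hoxd10 to Hoxd12, between Hoxd9 and Hoxd13, were not well above background in either line.

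**Figure D3:**
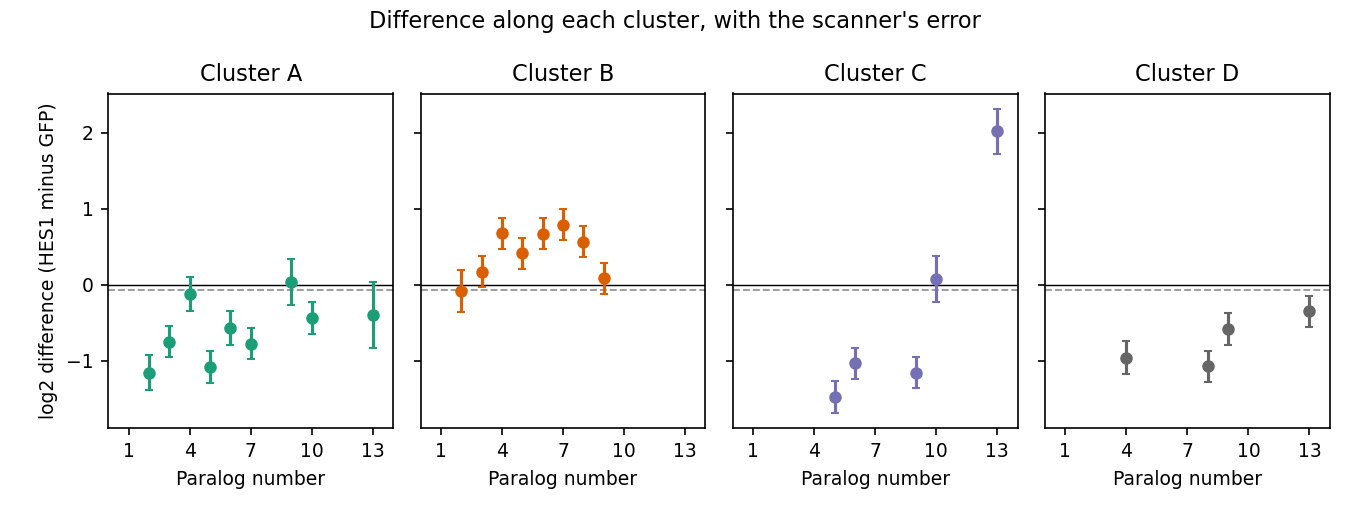
Log2 difference against paralog number in each cluster for 26 measured HOX genes, with bars for the scanner's error and 1 array per line. The dashed line is the median of all measured genes, -0.06. Cluster B peaks at Hoxb7 with 0.79, and Hoxc13 stands apart from the rest of cluster C at 2.02.

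Set against its own paralogs, cluster B was the higher one at every position where the comparison could be made. This comparison, and the pooling of clusters A, C and D, were not planned beforehand. Both reuse the differences given above and add no separate support. There were 8 paralog numbers, 2 to 9, with a measured gene in cluster B and at least 1 elsewhere, and in all 8 the gene of cluster B had the higher difference. The gap to the nearest paralog was largest at number 8, where Hoxb8 was at 0.57 and Hoxd8 at -1.07. It was 1.56 between Hoxb7 and Hoxa7, and 1.24 between Hoxb6 and the nearer of its paralogs, Hoxa6. At number 9 the gap was 0.05, between Hoxb9 and Hoxa9, which is within the scanner's error. With the median over a gene's probes the count was 7 of 8, since the probes of Hoxa9 gave different values. Paralogs are alike in sequence, and which transcripts a probe reads besides its own was not tested here.

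The 10 measured genes numbered 5 to 8 all differed by more than 2 scanner errors, where 40.3% of all measured genes did. Of genes numbered 1 to 4, 4 of 8 did, and of genes numbered 9 to 13, 4 of 9, both near that share. The difference between positions was not tested. In cluster B the 4 genes numbered 5 to 8 had a median of 0.62. In the other clusters the 6 genes numbered 5 to 8 had a median of -1.05, and all were below 0. Outside cluster B the medians were -0.75 over 5 genes numbered 1 to 4 and -0.37 over 8 numbered 9 to 13. With both directions mixed, the medians by position were -0.10, -0.67 and -0.35 from the head end to the tail end.

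The flanking genes had medians nearer to 0 than the cluster beside them, and around cluster A the median was of the opposite sign. Among all measured genes, 45.0% lay above 0. Of the 5 nearest coding genes on each side of cluster B, 9 were measured, with a median of -0.04 and 4 above 0, near that share. Relative to the median of all genes that was 0.020. Among them were Skap1 at 0.21 and Cbx1, a heterochromatin protein gene, at -0.52, while Nfe2l1, a transcription factor gene of proteasome control, was 2.05-fold higher. Ttll6, beside Hoxb13, was well above background only in the line labelled HES1, which gives at least 1.97-fold higher. Around cluster A, 6 of 7 measured neighbours lay above 0, with a median of 0.15. Medians were -0.27 around cluster C, where 2 of 7 neighbours lay above 0, and -0.39 around cluster D, where 3 of 8 did. None of these neighbours was past 2-fold, and Hnrnpa1, an RNA-binding protein gene beside cluster C, was at -0.86. Whether a cluster differs from its neighbours was not tested. With 25 genes on each side, where the chromosome held that many, the medians were 0.14, -0.04, -0.30 and -0.21 for clusters A to D. That wider window was chosen after the values were seen.

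Of 10 long noncoding genes within the clusters, 2 had a named probe on the array. Hoxa11os, transcribed antisense to Hoxa11, was at 57.8 in the GFP line and 88.9 in the line labelled HES1, a log2 difference of 0.62 with a scanner error of 0.37. Hoxd3os1, antisense to Hoxd3, was at 162 and 102 (-0.67, error 0.27). Neither of the coding partners, Hoxa11 and Hoxd3, was well above background. The 6 miRNA genes of the clusters, from the miR-10, miR-196 and miR-615 families, were not analysed here.

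Proteins of the TALE class bind DNA together with HOX proteins, and all 11 of their genes in the list were measured. In the line labelled HES1, 2 were at least 2-fold lower (4.95% of all measured genes were) and 1 at least 2-fold higher (11.1%), with a median of -0.23. Pbx3 went from 7046 to 3404 (2.07-fold lower, scanner error 0.20) and Pbx4 from 160 to 79.2 (2.02-fold lower, scanner error 0.27). At log2 differences of -1.05 and -1.01, both lay within their scanner error of the 2-fold threshold. Tgif1, a TALE repressor rather than a HOX partner, went from 9974 to 23438 (2.35-fold higher). Meis1, a common partner of HOX proteins, was at -0.07.

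Polycomb proteins keep HOX clusters silent and trithorax proteins keep them active. Of 26 measured Polycomb genes, 3 were at least 2-fold lower and 1 higher, against 4.95% and 11.1% of all measured genes, with a median of -0.30. Cbx2, which reads the silencing mark, went from 2146 to 773 (2.78-fold lower). Phf19 was 2.39-fold lower and Jarid2 2.07-fold lower, and both are accessory subunits of the complex that writes that mark. Jarid2, at a log2 difference of -1.05, lay within its scanner error of the threshold. Pcgf5, a subunit of a variant complex, was 2.45-fold higher at 17786 against 7249. The 12 measured trithorax and demethylase genes all stayed within 2-fold, as most of all measured genes did, with a median of -0.30. The largest of those differences was -0.94 for Kmt2c, a histone methyltransferase.

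Retinoic acid is a known inducer of HOX genes, and of 19 measured genes in the list of its enzymes, receptors and other HOX regulators, 6 were at least 2-fold higher and 0 lower, against 11.1% and 4.95% of all measured genes. Cyp26a1, which degrades retinoic acid, went from 61.7 to 1158, 18.8-fold higher. Crabp2, which carries retinoic acid to its receptors, went from 7767 to 22188 (2.86-fold higher). Aldh1a1, an enzyme that makes retinoic acid, was 2.47-fold higher at 184 against 74.4.

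Aldh1a3, a related enzyme, was at least 2.01-fold higher, and Cyp26c1 at least 2.23-fold higher, neither well above background in the GFP line. Egr2, a regulator of HOX genes in the hindbrain, was 9.80-fold higher at 2901 against 296. The receptors were within 2-fold, with Rara at -0.07, Rarg at -0.49 and Rarb at -0.34. Cyp26b1 was at -0.62. The median of the list was -0.15, so the higher genes were a minority of it. Whether retinoic acid signalling differed between the lines was not tested. Cdx2 and Cdx4, which activate HOX genes in the tail bud, were dim on both arrays. The related Cdx1 was well above background on both, at 83.0 in the GFP line and 74.3 in the line labelled HES1 (-0.16).

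**Figure D4:**
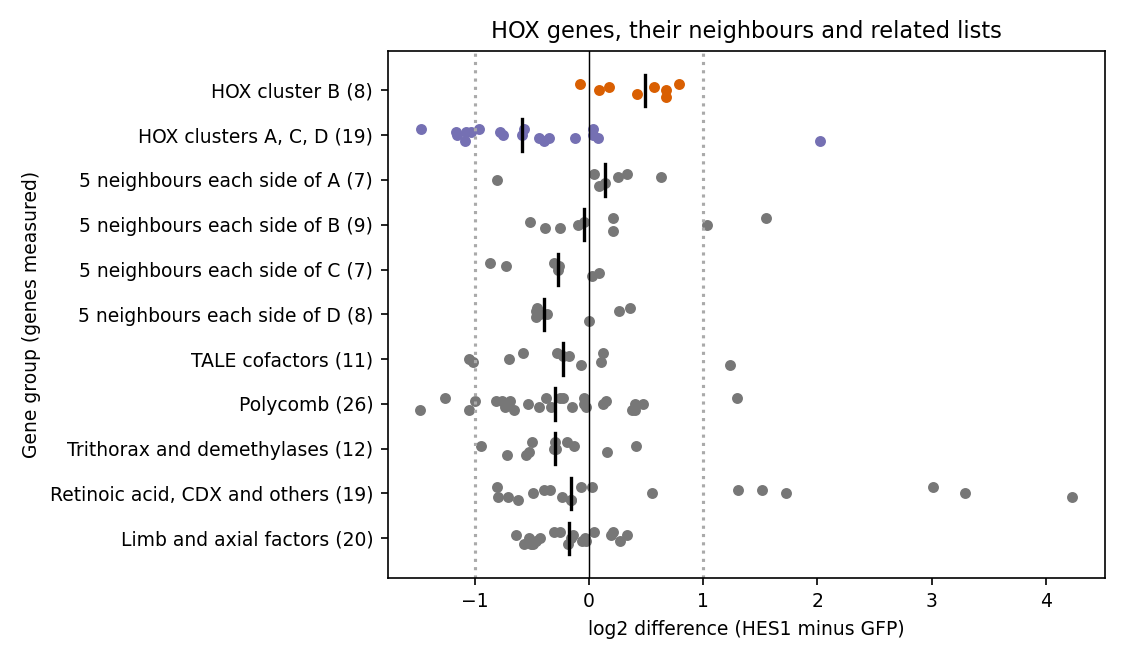
Log2 difference of every measured gene (points) and the median (black bar) for HOX clusters, their 5 nearest neighbours each side and related gene lists, 1 array per line. Dotted lines mark 2-fold. The median is 0.49 for cluster B and -0.58 for clusters A, C and D together, and the retinoic acid list reaches 4.23 at Cyp26a1.

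Other factors of limb and axial patterning stayed within 2-fold in all 20 genes measured of 30. Their median was -0.17 and their range ran from -0.64 for Six2 to 0.33 for Lmx1b, which marks the back of the limb. Prrx1 and Prrx2, factors of limb mesenchyme, were at -0.52 and -0.46. Tbx4, Tbx5 and Pitx1, which mark hindlimb or forelimb, were not well above background in either line.

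The chondrocyte label was checked against 15 marker genes, of which 12 were measured and 10 were well above background on both arrays. Sox9, the transcription factor that specifies chondrocytes, was at 3683 in the GFP line and 3227 in the line labelled HES1. Past 2-fold were Ucma, 2.56-fold lower, and the collagen chain gene Col9a3, at least 7.07-fold higher. Sox6 was well above background in the GFP line alone, which gives at least 1.48-fold lower. Summed signals of the measured markers were 55797 and 44715, mostly from Sox5 and Col2a1. Matn1, Matn3 and Hapln1 were not well above background. Of 8 osteoblast markers 6 were measured, 3 of them at least 2-fold lower (4.95% of all measured genes were), with summed signals of 24746 and 13966. Of the markers of other cell types, 4 of 8 for macrophage, 2 of 6 for endothelium, 1 of 6 for skeletal muscle, 5 of 6 for neuron, 3 of 6 for epithelium and 3 of 5 for adipocyte were measured. Among them Itgam was 2.09-fold lower, Snap25 2.16-fold lower and Tubb3 2.04-fold higher, while the muscle factors Myod1, Myog and Myf5 were at background. Summed signals were 50214 and 25335 for macrophage, mostly from Itgam, and 37261 and 19483 for neuron, mostly from Snap25. The sums for endothelium, skeletal muscle, epithelium and adipocyte were 8539 or lower in the GFP line. Signals do not compare genes with each other, so the sums do not rank cell types. The part of these markers in the HOX differences was not tested.

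**Figure D5:**
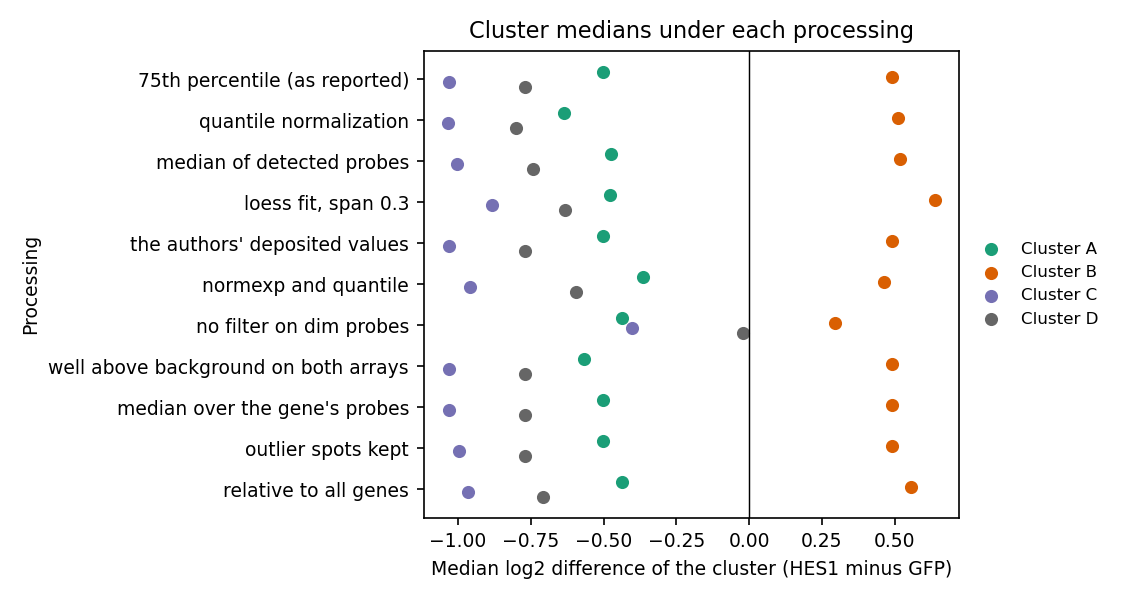
Median log2 difference of the measured genes of each cluster under each processing (rows), with 1 colour per cluster. Cluster B stays above 0 throughout, from 0.30 to 0.64, and clusters A, C and D stay below 0, with cluster D at -0.019 where dim probes are kept.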

How the data were processed

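Total RNA of 0.1 µg per line was labelled with Cy3, per the labels' protocols. Agilent Feature Extraction 10.10.1.1, named in the submitters' processing notes, gave each spot a background-corrected and detrended intensity, per the file headers. The arrays shared a slide and a mouse design on build mm9, again per the file headers. The authors' deposited value table holds the same intensity multiplied by 1.45 on the GFP array and by 1.53 on the other.

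Processed signals were divided by the 75th percentile of the 59305 spots of their array that are not controls, and log2 was taken. Spots with any outlier flag on either array were left out (1053), spots of a probe were averaged, and each gene took the value of its brightest probe, leaving aside probes dim on both arrays. Symbols came from a RefSeq table of GRCm38.p6, used for names and gene order. Genes past 2-fold were counted. No test was possible on 2 single arrays, whose number limits the precision. The members, gene lists and named genes (every HOX gene, 5 neighbours each side, and up to 4 list members past 2-fold or the largest) were chosen with earlier results of these data known. Retinoic acid list genes beyond 4, and list members within 2-fold, were named after their values were seen. Homeodomain sequences were not used here, and 1 HOX gene, which counts and medians include, is not reported here by itself. Scripts ran in Python 3.11.15 and in R 4.3.3 with limma 3.58.1, and were tested on simulated data. Alternatives changed the scaling, background correction, dim-probe filter, probe rule, outlier rule and threshold.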

Additional observations from a re-analysis of the deposited data

How the results depend on the processing

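No paired analysis was possible because each group has 1 array. Of 80 values of the medians over all HOX genes, by cluster and by position under 10 alternatives, 76 moved by less than the median scanner error of 0.21. The other 4 arose without a filter on dim probes, which adds genes not well above background on either array: the median of all HOX genes was -0.0029, of cluster C -0.40, of cluster D -0.019, and of genes numbered 9 to 13 it turned to 0.021. Of 269 values of single genes, 264 moved by less than their own scanner error, and the other 5 arose under the normexp correction. Many of these values could hardly move. The dim-probe and outlier rules left each gene's value as it was, and the probe rule can change only the 4 genes with more than 1 probe. The deposited values, the other scaling constant and the difference relative to all genes shift every gene nearly alike. Besides the probe rule, only quantile normalization, the loess fit and normexp could move genes separately. The count of lower genes was 3 after the loess fit, which moved the median of all genes by 0.14, and 2 under normexp. The count of higher genes was 0 under normexp and 3 without the filter. At 1.5-fold 4 were higher and 9 lower, against 17.4% and 14.6% of all measured genes. At 3-fold 1 was higher and 0 were lower. The causes were not tested. Differences relative to the median of all genes were added after seeing the data. Signs were counted only over the genes measured in the main processing. In cluster B, 7 of 8 of them lay above 0 under every alternative run. Outside it 15 to 17 of 19 lay below 0 (14 of 18 where both arrays had to be well above background). Genes that came in without the dim-probe filter or with flagged spots kept were left out of these counts. Dim genes limit what can be said of the ends of clusters C and D. The normexp correction used median spot signals.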
